A study of Mus musculus with 8 samples.

Results

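Expression of Dio3 and of other imprinted genes was examined by RNA-seq in murine spleen stromal cells. The 10 genes (Dio3, Meg3, Rian, Peg3, Plagl1, Mest, Grb10, Cdkn1c, H19 and Ndn) were chosen by name, with the authors' fold changes between treatments in these same samples in view, and rows were then taken by gene symbol. Of the 10 genes, 9 had a row among the 12589 rows of the deposited table, and no row was found for Plagl1, also when older symbols were matched. The cultures came from the mSSC-YFP line, a single line grown out of mouse spleen stroma that carries a yellow fluorescent protein. The labels list 4 cultures treated with the vehicle DMSO and 4 treated with BMS493, an inhibitor of retinoic acid receptor signaling, each for 48 h. All cultures therefore share the line and the solvent, and the labels give no dose.

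What the table holds per gene, apart from the authors' own comparison, is 1 mean log2 normalized expression over all 8 cultures. No culture has a column of its own. Neither a spread between cultures, nor a depth per library, nor a comparison of BMS493 with DMSO is therefore given. A mean over both treatments also cannot show whether a gene lay higher in either of them. The levels below are thus descriptions of the line across both treatments, with no test. To compare genes of different size, the mean was divided by the length of all exons of the gene (bases shared by several transcripts counted once) and given as log2 normalized expression per kilobase, and each gene was placed by its percentile among the 12393 rows with a known length.

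Imprinted genes are read mainly from the copy inherited from one parent, because DNA methylation set in the egg or sperm marks the copies differently. Many of them act on growth before birth and are kept low in adult tissues, and they often lie in clusters that share a control region. The reads in this table were not assigned to parental copies, so that the imprint itself was not measured.

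Dio3 encodes type 3 deiodinase, the enzyme that inactivates thyroid hormone. It is a selenoprotein, in which a TGA codon inside the reading frame is read as selenocysteine instead of stop. Among the 10 genes it was the only 1 annotated with such a codon. In the GENCODE M21 transcript it is codon 170 of 304, on the plus strand at chr12:110279739-110279741 of GRCm38. It is shown here with 12 bases on either side (chr12:110279727-110279753), the TGA in capitals.

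Dio3 coding sequence: ggcagctgtaccTGAccaccgttcatg

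For 8 of the 10 genes RefSeq promoter windows were at hand, reaching from 250 bases before to 50 bases after a transcription start (GRCm38.p6), and those of Cdkn1c and H19 were not used here. CpG dinucleotides, the sites that carry DNA methylation, differed widely among these windows. The windows of Dio3, Rian and Grb10 are shown, Dio3 as the leading gene and the others as the windows with the lowest and the highest number of CpG among the members. CpG are in capitals. The Dio3 window lies at chr12:110278980-110279279 on the plus strand and the Rian window at chr12:109603695-109603994 on the plus strand. The Grb10 window lies at chr11:12037371-12037670 on the minus strand.

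Dio3 promoter: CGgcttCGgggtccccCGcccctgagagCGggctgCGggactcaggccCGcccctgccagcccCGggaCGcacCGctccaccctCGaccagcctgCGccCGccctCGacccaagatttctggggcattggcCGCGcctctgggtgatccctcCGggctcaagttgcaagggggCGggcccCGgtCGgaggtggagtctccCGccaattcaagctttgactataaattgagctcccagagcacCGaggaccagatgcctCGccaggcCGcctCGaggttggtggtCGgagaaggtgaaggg
Rian promoter: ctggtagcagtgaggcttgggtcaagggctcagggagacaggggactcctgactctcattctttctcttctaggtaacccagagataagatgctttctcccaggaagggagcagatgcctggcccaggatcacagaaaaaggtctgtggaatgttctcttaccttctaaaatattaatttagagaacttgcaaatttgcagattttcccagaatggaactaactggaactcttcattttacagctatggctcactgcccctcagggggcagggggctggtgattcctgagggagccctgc
Grb10 promoter: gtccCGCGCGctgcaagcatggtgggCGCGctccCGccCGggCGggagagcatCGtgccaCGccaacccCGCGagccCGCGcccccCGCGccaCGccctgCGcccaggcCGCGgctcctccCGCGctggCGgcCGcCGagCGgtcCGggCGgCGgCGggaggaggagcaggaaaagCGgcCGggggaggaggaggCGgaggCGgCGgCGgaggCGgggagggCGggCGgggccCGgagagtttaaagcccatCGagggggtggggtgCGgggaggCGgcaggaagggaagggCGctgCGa

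The Dio3 window held 25 CpG at 69.0% GC, at percentile 82.4 of all 32851 windows in the RefSeq table. Most of this window lies in the GENCODE exon, which starts at 110279068, and its end is coding sequence, which starts at 110279232. The Grb10 window held 45 CpG at 80.0% GC, at percentile 98.2, whereas the Rian window held 0 CpG at 49.3% GC, at percentile 2.71. Of the 8 genes with a window, Rian was the only 1 without a CpG. A second start of Grb10 held 9 CpG, and the 3 starts of Mest held 8, 17 and 17. The window of Plagl1 held 26 CpG, those of Meg3 13 and 1, that of Peg3 13 and that of Ndn 11. Over all windows of the table the median was 7 CpG. The median over windows of genes with a row was 21, above that of 9 of the 12 member windows.

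**Figure D1:**
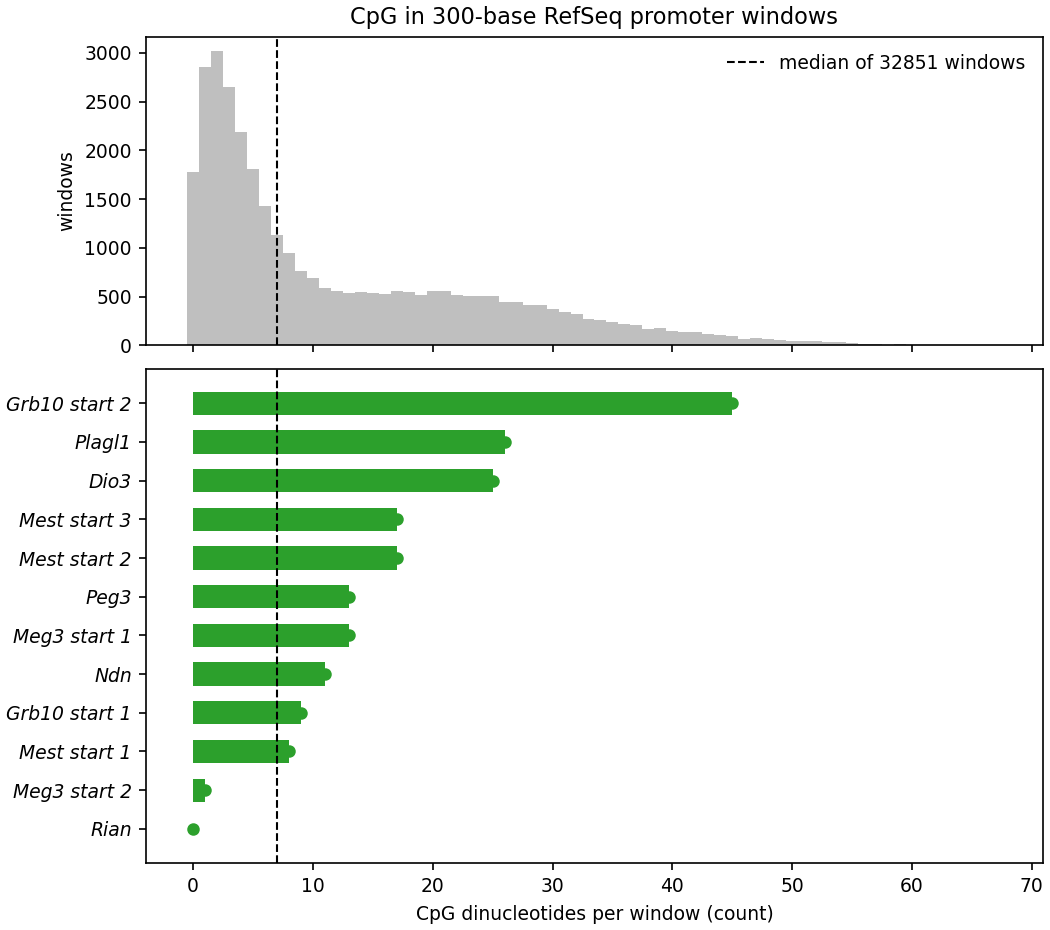
Top, the number of CpG dinucleotides (x axis, count) in all 32851 RefSeq promoter windows of 300 bases (y axis, windows). Bottom, 1 bar per transcription start of a member, numbered by position on the chromosome where a gene has several. The dashed line marks the median of 7, and Grb10 start 2 reaches 45 while Rian is at 0.

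Motifs were searched in these windows as exact letters on both strands. AGGTCA, the half-site of retinoic acid receptors and of many other nuclear receptors, was found in 1 of the 12 member windows, the second start of Meg3, and in 16.3% of all windows. No member window held 2 copies in direct repeat with 2 or 5 bases between them, an arrangement found in 0.00913% of all windows for either spacing. TGCCGC, which the imprint-keeping zinc finger protein ZFP57 binds when methylated, was found in 5 of the 12 windows, belonging to Meg3, Plagl1, Mest and Grb10. The pair of Mest windows among them overlap almost wholly and hold the same sites, so that these windows are not independent. Of all windows 11.6% held it, and of windows of genes with a row 19.6%. The direct repeats contain AGGTCA and were thus counted under both, and a match describes the sequence, not binding.

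In the line as a whole, the member genes were spread from near the bottom to the upper part of the range of genes. The highest per kilobase was Peg3 (Rian with the longest transcript of each gene), a paternally expressed zinc finger gene on chromosome 7 (6703892 to 6730431), with a mean log2 level of 8.77 and 5.03 per kilobase, at percentile 86.7. The lowest was Mest, a paternally expressed gene for a protein of the hydrolase fold on chromosome 6 (30723547 to 30748465), with a mean log2 level of 1.20 and -0.78 per kilobase, at percentile 6.25. Per kilobase Peg3 was thus 56.3-fold above Mest. The median of the 9 genes was 3.24 per kilobase, beside 2.85 over all rows with a length, and 6 of the 9 lay above that median. This count depended on the length used, since 4 of the 9 lay above the median of all genes with the longest transcript (Ndn and H19 then falling just below it) and 5 of the 9 without division by length.

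Dio3 was among the lower members. Its mean log2 level was 2.53, at percentile 17.5 of all rows, and 1.51 per kilobase, at percentile 26.2. Dio3 lies on chromosome 12 from 110279068 to 110281097 on the plus strand as a single exon of 2030 bases, and the RefSeq start is 162 bases inside it. No other annotated gene shares its exon bases on either strand.

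Of the maternally expressed non-coding RNAs of the same cluster, Meg3 and Rian stood far above Dio3, whereas Mirg was 1.33-fold above it. Meg3, a long non-coding RNA that opens the maternally read part of the cluster, lies from 109541001 to 109571726 with a mean log2 level of 8.82 and 4.64 per kilobase, at percentile 82.1. Rian, a host RNA of many small nucleolar RNAs, lies from 109603940 to 109661716 with the same mean of 8.82 and 4.63 per kilobase, at percentile 81.9. Per kilobase Meg3 was 8.79-fold and Rian 8.71-fold above Dio3. These folds depend on the exon length used: with the longest transcript of each gene in place of all exons, Meg3 was 10.9-fold and Rian 19.6-fold above Dio3.

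All 6 genes named for this cluster had a row. Dlk1, the paternally expressed gene of a membrane protein related to Notch ligands at the other end of the cluster, was at 5.16 per kilobase and so 12.6-fold above Dio3. Mirg, another maternal host RNA that holds a large microRNA cluster, was at 1.92. Rtl1, a paternally expressed gene derived from a retrotransposon, was the lowest at -1.86, at percentile 1.81. Per kilobase of all exons the paternally expressed genes were therefore at both ends of the cluster's range, with Dio3 between Mirg and Rtl1. With the longest transcript of each gene Rian, at 5.80, lay above Dlk1, at 5.44. From the start of Dlk1 to the end of Dio3 the cluster spans 828 kilobases, of which 530 kilobases separate Mirg from Dio3.

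**Figure D2:**
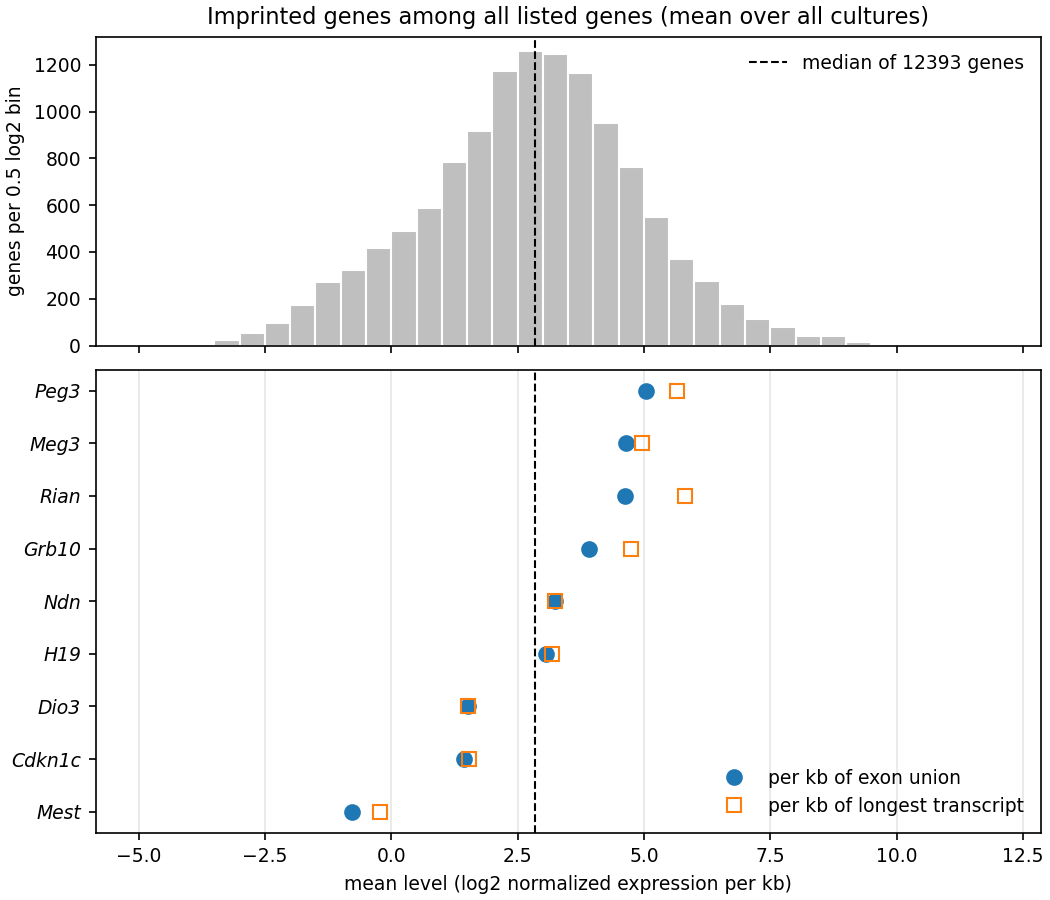
Top, the distribution of the mean level (x axis, log2 normalized expression per kilobase) over 12393 genes (y axis, genes per bin). Bottom, the 9 members with a row, as filled circles per kilobase of all exons and as open squares per kilobase of the longest transcript, each a mean over all 8 cultures without an error. Peg3, Meg3 and Rian lie right of the dashed median of 2.85, and Dio3, Cdkn1c and Mest left of it. This median is that per kilobase of all exons, so it is the reference for the filled circles only.

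The remaining maternally expressed members fell into the upper, the middle and the lower part of the range. Grb10, which is read from the maternal copy in most tissues and encodes an adaptor that binds the insulin and insulin-like growth factor receptors and restrains their signaling, had a mean log2 level of 7.09 and 3.90 per kilobase, at percentile 71.0 (chromosome 11, 11930508 to 12038683). H19, a long non-coding RNA, had 4.37 and 3.07 per kilobase, at percentile 54.6 (chromosome 7, 142575529 to 142578143). Cdkn1c, which encodes the cyclin-dependent kinase inhibitor p57, had 2.46 and 1.43 per kilobase, at percentile 25.3 (chromosome 7, 143458339 to 143461050). Cdkn1c and Dio3 were close to each other at the low end, and with the longest transcript their order turned. Ndn, the paternally expressed necdin gene of a growth-restraining protein, lay in the middle with 5.13 and 3.24 per kilobase, at percentile 58.1 (chromosome 7, 62346569 to 62350262).

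Read by parental copy, the 5 maternally expressed members had a median of 3.90 per kilobase and ran from 1.43 to 4.64. The 4 paternally expressed members with a row had a median of 2.37 and ran from -0.78 to 5.03, so that the ranges overlapped widely. The highest member was of the paternal group with all exons (Peg3) and of the maternal group with the longest transcript (Rian). Read by product, the 3 non-coding RNAs ran from 3.07 to 4.64 and the 6 protein-coding genes from -0.78 to 5.03.

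Neighbours in the same cluster differed in level to varying degrees. In the Dio3 cluster, Meg3 and Rian were 1.01-fold apart (Rian being the higher with the longest transcript) and Mirg was 1.33-fold above Dio3 (2.54-fold with the longest transcript). In the H19 cluster, H19 was 2.46-fold above Igf2, the paternally expressed growth factor gene 72.6 kilobases away, which was at 1.77 per kilobase. In the Peg3 cluster, Peg3 was 66.6-fold above Zim1 (97.1-fold with the longest transcript), a maternally expressed zinc finger gene 7.44 kilobases away. No row was found for Usp29, which starts 146 bases from Peg3 on the other strand. The mean log2 level was as low as 1.99 for Zim1 and 0.28 for Ddc, the lowest of all rows being -0.58. Grb10 was 55.0-fold above Ddc and 29.8-fold above Cobl, the genes beside it (44.7-fold and 37.0-fold with the longest transcript). The reverse held for Mest, which was 27.8-fold below its neighbour Copg2 (24.3-fold with the longest transcript). The mean log2 level of Mest was likewise low, at 1.20.

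The annotation bears on some of these levels. In Mest, 23.1% of the exon bases are also exon of Copg2 on the other strand, and in Cdkn1c 30.7% are exon of Gm44732 on the other strand. In Meg3 the corresponding share was 6.79%, with Gm26906, and in H19 5.73%, with Gm27483 and Gm27786. The library kit kept the strand, whereas a strand setting for counting is not given in the sources used here, and its part in the levels was not tested. In Rian 3.42% of the exon bases belong also to 9 small RNA genes on the same strand.

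Other genes were listed by name as imprinted, and whether they are so in this line was not measured. In all, 34 of 52 such genes had a row. Their median was 2.06 per kilobase, at percentile 34.4, and 13 of the 34 lay above the median of all genes. The highest was Cd81, a tetraspanin gene at the edge of the Kcnq1 cluster, at 6.83, and the lowest was Ddc, the gene of aromatic amino acid decarboxylase, at -1.88, beside Rtl1 (the lowest with the longest transcript). The levels of Dcn (6.16), which encodes the matrix proteoglycan decorin, and Igf2r (4.73), the receptor that clears the growth factor of Igf2, were also in the upper part of the range. Of the Prader-Willi cluster, which takes its name from the human syndrome, 4 of 7 genes had a row, and Ndn was the highest of them, 1.80-fold above Snrpn. No row was found for its neighbours Magel2 and Mkrn3.

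**Figure D3:**
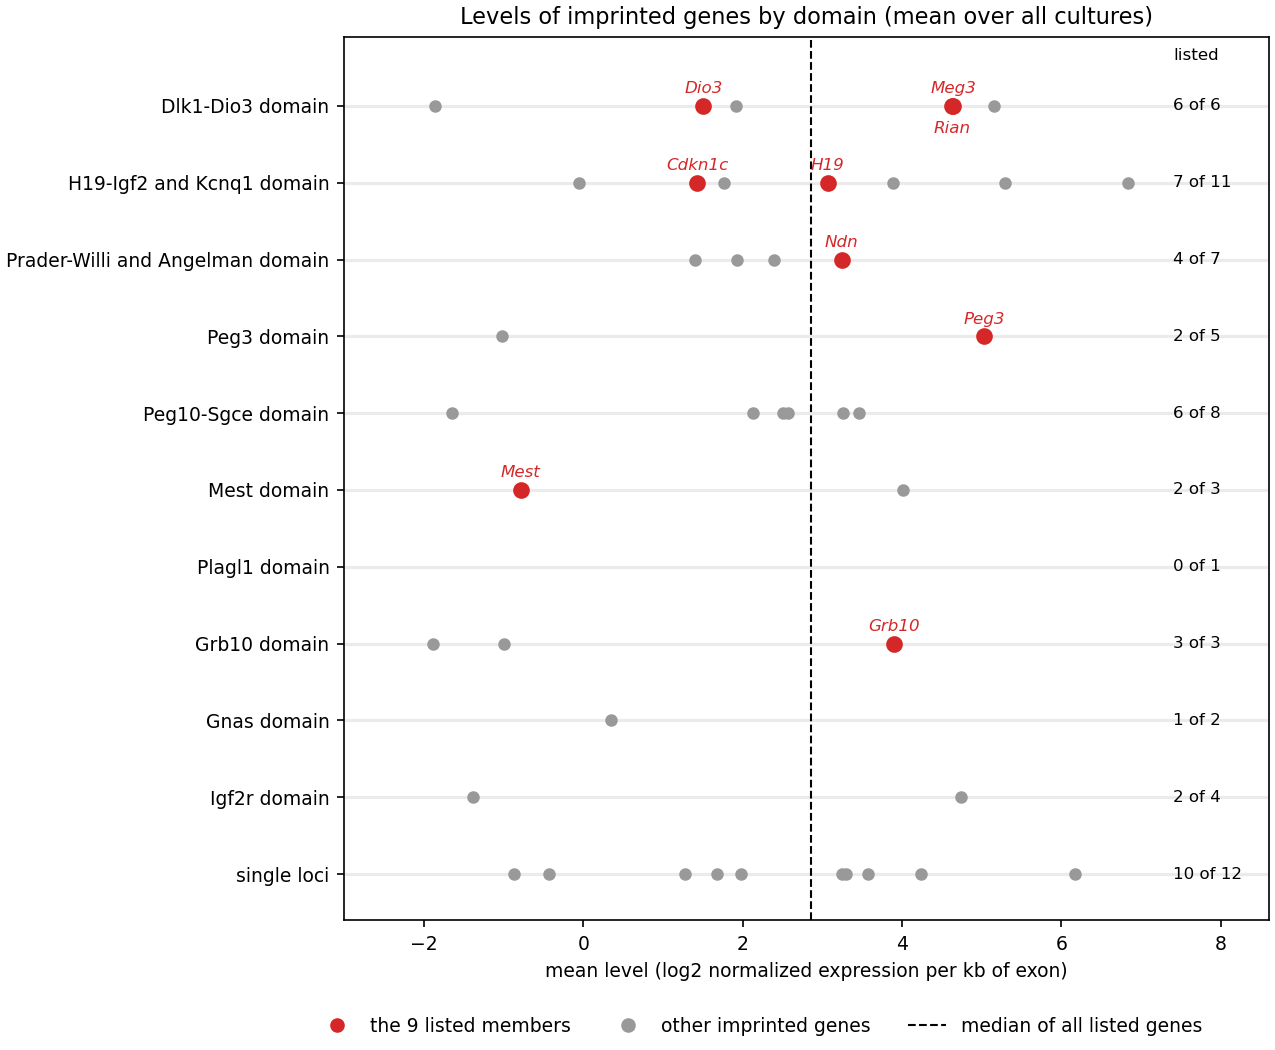
Each row is an imprinted cluster, except the row of single loci, whose genes do not form a cluster. Each point is a gene at its mean level (x axis, log2 normalized expression per kilobase of exon) over all 8 cultures. Members are in red and other imprinted genes in grey, with the number of genes that have a row at the right. In the Dlk1-Dio3 cluster Meg3 and Rian overlie each other near 4.6, and Dio3 lies at 1.51.

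Genes that act with the members were read in the same way. Of 21 genes of thyroid hormone transport, response and selenoprotein synthesis, 14 had a row, with a median of 1.97 per kilobase. Dio3 was the only deiodinase gene with a row, and none was found for Dio1 and Dio2, which encode the activating deiodinases. Of the receptor genes, Thra was at 3.73 and Thrb at -3.10, the lowest of the list. The highest gene was Slc3a2, a subunit of amino acid carriers, at 6.64. The genes that insert selenocysteine were at 3.57 for Eefsec, the elongation factor, 3.57 for Sephs2, 2.44 for Secisbp2, 1.51 for Sepsecs and 0.95 for Pstk. Of the 24 genes annotated with a selenocysteine codon, a group taken from the annotation after the levels were seen, 19 had a row when older symbols were matched, from -0.84 for Gpx3 to 7.22 for Gpx1. Dio3 was the eighteenth of these 19.

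Cdkn1c was the lowest of the 3 genes for inhibitors of its family. Cdkn1a, the gene of p21, was at 5.94 and Cdkn1b, the gene of p27, at 4.28, which is 22.7-fold and 7.22-fold above Cdkn1c. With the longest transcript these folds were 36.2 and 6.73. All 22 genes of the list of growth and cell cycle partners had a row, with a median of 3.33, the highest being Cdk4 at 9.20 and the lowest Igf1 and Cdk6, both at 0.70. The receptors bound by Grb10 were lower than Grb10 itself, Igf1r at 2.68 and Insr at 2.10. Of 18 genes listed for setting, keeping or erasing imprints, 17 had a row, with a median of 3.33. The highest of these was Trim28, the corepressor that ZFP57 recruits, at 6.50, and Zfp57 itself was at 4.64, at percentile 82.1. The maintenance methyltransferase gene Dnmt1 was at 5.21, whereas Dnmt3b was at -0.85 and Tet1, the lowest, at -1.09.

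**Figure D4:**
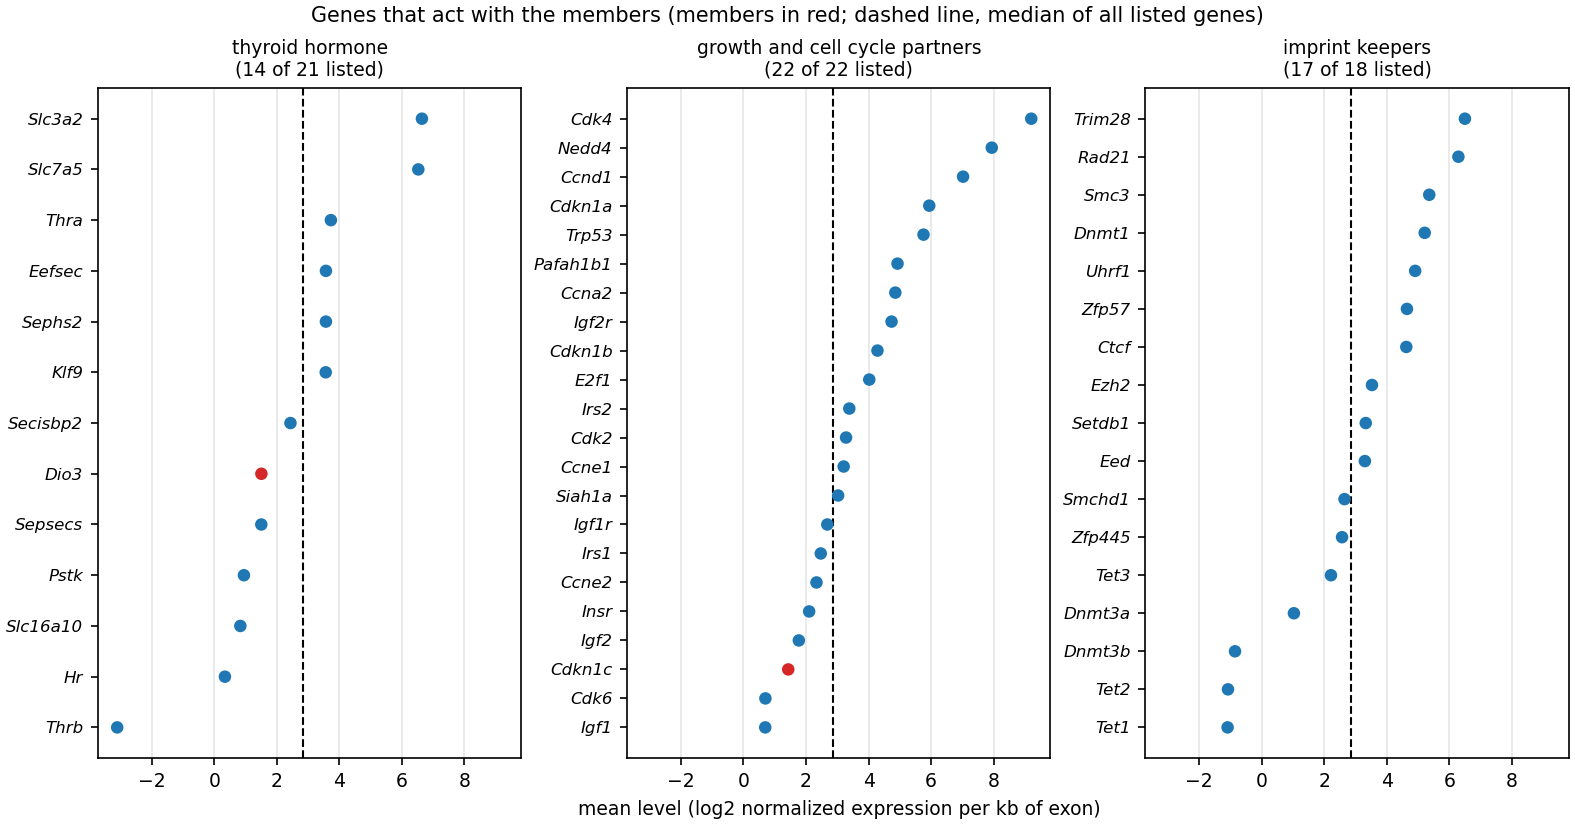
Mean levels (x axis, log2 normalized expression per kilobase of exon) of genes with a row in 3 lists, 1 point per gene as a mean over all 8 cultures, members in red. Of the thyroid hormone list 1 gene counted in the panel title is not drawn. Dio3 lies level with Sepsecs at 1.51, and Cdkn1c near the bottom of its list.

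Of the members, 4 enclose microRNA hairpins on their own strand. Those of H19 and Meg3 lie within exons, and those of Mest and Rian do not lie wholly within exons. The mature sequences from H19 (miR-675, chromosome 7, minus strand) and Mest (miR-335, chromosome 6, plus strand) are shown, the former from a host in the middle of the range and the latter from the lowest member. The seed, bases 2 to 8, is in capitals, and the sequences are those of RefSeq.

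miR-675-5p: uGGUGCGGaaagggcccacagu
miR-675-3p: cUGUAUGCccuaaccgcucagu
miR-335-5p: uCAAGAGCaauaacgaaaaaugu
miR-335-3p: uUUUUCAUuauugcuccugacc

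Mir1906-1, annotated on the same strand in exons of Meg3, is not among the hairpins counted here. The 6 hairpins counted in the members give 12 mature sequences with 12 different seeds, so that no seed was shared among these. No hairpin gene among them had a row, and the level of a host does not measure its microRNA.

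The labelled cell type was compared with marker genes. All 10 markers of mesenchymal stroma had a row, with a median of 6.37 per kilobase and Col1a1, a chain of type I collagen, as the highest at 10.57. The lowest was Pdgfra, a receptor of platelet-derived growth factor, at 1.92, at percentile 32.0, and it was the only 1 of the 10 below the median of all genes. None of 6 leukocyte markers had a row. Of 4 endothelial markers, 2 had a row, Kdr at -0.34 and Pecam1 at -2.17, and no row was found for Cdh5 and Tek. Of 4 epithelial markers, 3 had a row, Krt8 at 0.58, Krt18 at -0.21 and Cdh1, the E-cadherin gene, at 5.83, at percentile 93.0, with none for Epcam. The part of other cell types in the levels of the imprinted genes was not tested.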

How the data were processed

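RNA was sequenced from 8 cultures, grouped by the labels as 4 DMSO and 4 BMS493. According to the methods, the authors made stranded mRNA libraries, aligned reads to mm10 with STAR (2.3.0e in the submitters' processing notes), counted reads with a unique position on Ensembl genes and normalized the counts (weighted trimmed mean of M-values). The deposited column used here is the authors' mean log2 normalized expression over all samples. Read with decimal commas, 2 raised to it sums to 989369 over all rows. The other 4 columns hold the authors' comparison (log2 fold change, t, p-value, adjusted p-value) and were not used. The planned test of BMS493 against DMSO needs values of single cultures and was not run.

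Gene models were those of GENCODE M21 (GRCm38, mm10), found for 11789 rows by symbol, 604 through 1 older symbol, and not found for 196. Lengths come from that release, which is not the one used for counting. The functions were tested on simulated data. Python 3.11.15, numpy 2.4.6 and pandas 2.3.3 were used. Members and lists were chosen with earlier results of these data known. Named are all members, their neighbours and partners, and the highest and lowest gene of each list (the other imprinted genes taken as 1 list). Others named (Dcn, Igf2r, Gpx1, Gpx3, Zfp57, Dnmt1, Dnmt3b, the genes that insert selenocysteine and single markers) were chosen after their values were seen. The level of 1 gene of the thyroid hormone list is not reported here. The alternatives were older symbols, other lengths, other reference genes and windows.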

Additional observations from a re-analysis of the deposited data

How the results depend on the processing

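No paired analysis was possible because no culture has values of its own, and for the same reason leaving out a culture, other scalings and filters on counts were not run. Matching older symbols left the count of members with a row at 9. The median level of the 9 members was 3.24 log2 per kilobase with all exons and with the longest transcript, and 5.13 without division by length. Their median percentile was 58.1, and became 49.2 with the longest transcript, 52.7 without division by length, 58.0 among protein-coding genes and 55.2 among genes with a mean log2 level of at least 1. With the longest transcript the order of the upper members changed, with Rian (5.80) above Peg3 (5.65) and Meg3 (4.96), and Cdkn1c (1.53) above Dio3 (1.51). The median percentile of CpG number, taken over the promoter window nearest to each gene's annotated start, was 62.9 among all windows and 26.8 among windows of genes with a row. The nearest RefSeq start still lay 30328 bases inside the annotated gene for Plagl1 and 9959 bases for Mest. For Ndn it lay 1708 bases inside, and for Grb10, at the window printed above, 1263 bases.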
